A study of Mus musculus with 9 samples.

Results

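The AP-1 subunits and immediate early genes examined here were Fos, Fosb, Fosl1, Fosl2, Jun, Junb, Jund, Egr1, Atf3 and Ier2. They were taken by gene symbol, and all 10 were found among the 34637 genes of the FPKM table. Their read counts were read by gene identifier from the count table, which lists 55401 genes. The RNA came from the back skin of male C57BL/6 mice with atopic dermatitis-like lesions, which were 6 to 8 weeks old before the treatment. Every mouse, in both groups, was shaved and sensitised on day 1 with 200 µL of 1% DNCB, a small reactive molecule that raises contact allergy. The skin was then painted with 100 µL of 0.5% DNCB repeatedly from day 4 to day 21. FJDHF-M mice (5 libraries) received the Fangji Dihuang formulation, a herbal preparation, by mouth every day after day 7 until day 28, and Model mice (4 libraries) received the same amount of water. The model is a chemical allergy of 1 skin site, and both groups had been treated with the allergen, so the comparison shows treated against untreated lesions. Skin without DNCB was not analysed here.

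The columns of the tables carry codes that the labels do not explain. The 5 codes that start with MR were taken as FJDHF-M and the 4 that start with MXL as Model, because the groups have these numbers of mice and MX abbreviates the Chinese term for model in pinyin. Every direction given here rests on that assignment. No code was matched to a particular mouse, and whether a code such as MR3_4 or MXL12 marks more than 1 animal was not tested, so n counts libraries. Total counts ran from 74648669 to 79474215 per library, and 3 counts, taken as the detection floor, corresponded to 0.0375 to 0.0415 CPM, the count scaled to the size of the library. The floor covers counting error only, and the intervals given below come from the edgeR fit and include the spread between libraries.

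AP-1 is a transcription factor made of pairs of proteins with a basic region and a leucine zipper. A FOS protein (c-FOS, FOSB, FRA-1 from Fosl1, FRA-2 from Fosl2) pairs with a JUN protein (c-JUN, JUNB, JUND), while JUN proteins can also pair with each other or with ATF proteins. Fos, Fosb, Jun, Junb, Egr1, Atf3 and Ier2 are immediate early genes, which are switched on within minutes of a growth factor, wound or stress signal without new protein synthesis. Their mRNAs are then lost quickly. In epidermis AP-1 is known for the control of keratinocyte differentiation and of inflammatory and matrix-degrading genes.

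The promoters of Fos, Fosb, Jun and Fosl2 are shown because these genes carry the main contrast described here, with Fos, Fosb and Jun moving together across libraries and Fosl2 not moving with them. The 100 bases before the RefSeq transcription start (GRCm38.p6) are printed 5′ to 3′ on the strand of the gene, at chr12:85473790-85473889 on the plus strand for Fos, chr7:19310046-19310145 on the minus strand for Fosb, chr4:95052223-95052322 on the minus strand for Jun and chr5:32136372-32136471 on the plus strand for Fosl2. Capitals mark TGACG, which is the core of the cAMP response element, or the TATAAA box.
Fos: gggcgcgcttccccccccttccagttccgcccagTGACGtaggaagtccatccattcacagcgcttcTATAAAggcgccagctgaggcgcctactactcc
Fosb: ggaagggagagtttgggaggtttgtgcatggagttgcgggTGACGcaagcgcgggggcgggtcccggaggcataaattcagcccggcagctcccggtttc
Jun: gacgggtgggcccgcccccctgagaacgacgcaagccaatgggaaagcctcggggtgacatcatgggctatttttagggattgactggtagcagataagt
Fosl2: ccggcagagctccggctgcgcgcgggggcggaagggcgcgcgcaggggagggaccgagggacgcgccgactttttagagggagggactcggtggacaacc

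The start is counted as base 1 and the base before it as -1. Fos held TGACG at -66 to -62, again at -129 to -125 upstream of the bases shown, and TATAAA at -33 to -28, while Fosb held TGACG at -60 to -56. Of the 10 genes, 7 had an entry among the RefSeq promoters (250 bases before and 50 after the start), namely Fos, Fosb, Fosl2, Jun, Junb, Jund and Atf3. The Jund window (chr8:70697489-70697788) lay upstream of the gene coordinates given below, and those of Atf3 and Fosl2 lay inside them. Both strands of the 7 windows were searched. TGACG occurred in 4 of the 7 (Atf3, Fos, Fosb, Junb) and in 20.8% of all 32851 promoters of the same length. The complete element TGACGTCA, which contains TGACG, occurred in 0 of the 7 and in 1.79% of all promoters. The AP-1 element TGANTCA occurred in 0 of the 7 and in 7.81% of all, and the CArG box, the element bound by SRF, in 0 of the 7 and in 1.63%. TATAAA occurred in 2 of the 7 (Fos, Junb) and in 13.6% of all. In Junb it lay at 1 to 6, on the start itself and not before it. CCAAT occurred in 3 of the 7 and in 37.4%, and GGGCGG, the letters of an SP1 element, in 5 of the 7 and in 35.7%. These matches describe letters in a window and not measured binding. Elements more than 250 bases before the start were not searched. Variants of these letters, such as tgacatca in the Jun bases shown, were not counted either. A count of 0 therefore does not mean that these genes lack such elements.

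The levels of the genes were compared with each other on the FPKM scale, which corrects for gene length. Egr1 (median 18.3 FPKM over the 9 libraries), Fosl2 (18.1) and Fos (16.5) stood highest, followed by Jun (9.96) and Atf3 (5.06). Jund (1.09 FPKM), Fosb (0.772), Ier2 (0.672) and Junb (0.298) were low, and Fosl1 had a median of 0. Of neighbours in this order, Atf3 and Jund did not overlap in range, and neither did Junb and Fosl1. The ranges of all other neighbours overlapped. Ier2 was nevertheless above Junb in 9 of 9 libraries, and Egr1 was above Fosl2 in 7 of 9. Fos alone covered the range from 2.44 to 83.5 FPKM, so that in MR3_4 it stood far above Egr1 and Fosl2 and in MR5 below Atf3.

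**Figure D1:**
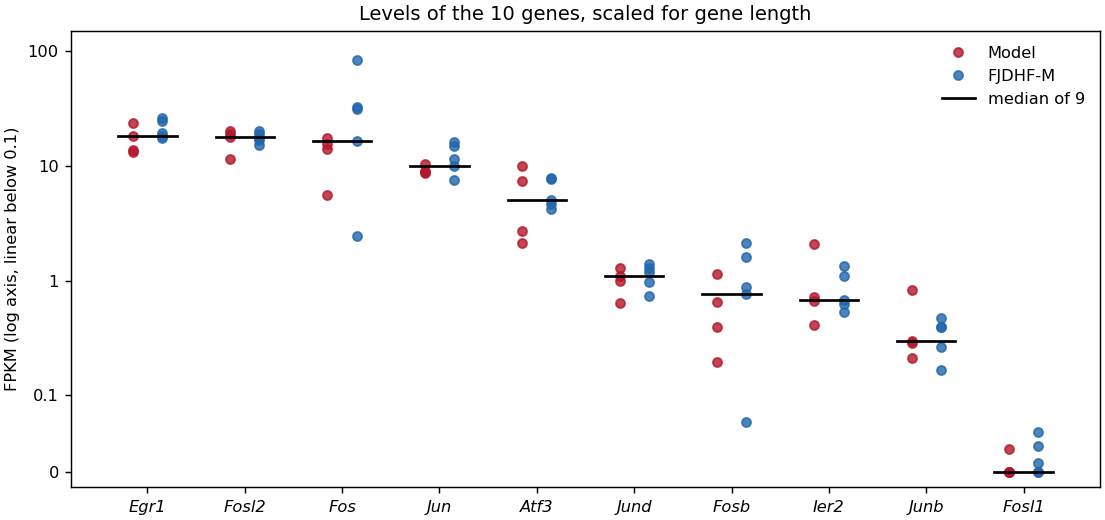
Deposited FPKM of each of the 10 genes in the 4 Model (red) and 5 FJDHF-M (blue) libraries, on an axis that is logarithmic above 0.1 and linear below it, with the median of all 9 libraries as a black line. Fos spreads from 2.44 to 83.5 FPKM, whereas Fosl2, at nearly the same median, stays between 11.5 and 20.4.

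Within the FOS family, c-FOS and FRA-2 transcripts made up nearly the whole sum of FPKM, and which of them led depended on the library. Fosl2 accounted for 15.2% of the FOS family in MR3_4 and for 86.7% in MR5. Fos accounted for 82.7% of it in MR3_4 and 12.7% in MR5. Within the JUN family Jun led throughout, with 83.0% to 91.5% of the summed FPKM. This share and the ratio of the families depend on the low values of Junb and Jund, which are GC-rich genes of 1 exon. Whether such genes were measured less fully than others was not tested. The sum over the FOS family was 2.30 times that over the JUN family in MR5 and 5.64 times in MR3_4, and the other libraries lay between these values.

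Fos, on chromosome 12 (GRCm38, 85473890 to 85477273, plus strand, 4 exons), encodes the founding FOS subunit. Its level in FJDHF-M was 82.7 CPM in MR1, 39.4 in MR3, 215.3 in MR3_4, 74.5 in MR4_5 and 5.93 in MR5. In Model it was 33.7 CPM in MXL1, 38.6 in MXL12, 14.2 in MXL3_4 and 45.4 in MXL_3. The highest and the lowest library were thus both FJDHF-M, 36.3-fold apart, and the Model libraries lay inside that range. The mean was 83.5 ± 79.7 CPM (SD, n = 5) in FJDHF-M and 33.0 ± 13.4 (SD, n = 4) in Model. The log2 fold change, FJDHF-M over Model, was 1.34 with an SE of 0.76 in the edgeR quasi-likelihood fit (unadjusted p = 0.108, Benjamini-Hochberg adjusted p over all genes = 1.00), with a 95% interval from -0.35 to 3.03. The difference in mean log2(CPM + 0.5) was smaller, at 0.73. An exact two-sided permutation test of that difference gave p = 0.540, where 0.00794 is the smallest value that 5 against 4 libraries can give. Without MR5 the edgeR log2 fold change of Fos was 1.64 (unadjusted p = 0.0121, adjusted p = 1.00), and without MR3_4 it was 0.62 (unadjusted p = 0.374).

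Fosb, on chromosome 7 (19302696 to 19310051, minus strand, 4 exons), encodes a close relative of c-FOS. It was measured at 5.88, 4.92, 14.6, 10.3 and 0.421 CPM in MR1, MR3, MR3_4, MR4_5 and MR5, and at 2.53, 4.32, 1.33 and 7.82 CPM in MXL1, MXL12, MXL3_4 and MXL_3. As for Fos, MR3_4 was the highest and MR5 the lowest library, here 34.6-fold apart. On the log2 scale the difference between the groups was 0.85 with an SE of 0.79 (edgeR unadjusted p = 0.307, adjusted p = 1.00), and the interval ran from -0.91 to 2.61. Without MR3_4 the value was 0.43.

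Fosl2, on chromosome 5 (32135801 to 32157842, plus strand, 4 exons), encodes FRA-2, and it had the smallest spread over the libraries among the 9 tested genes (1.69-fold from lowest to highest). Its 5 FJDHF-M libraries held 182.1, 187.8, 162.9, 200.6 and 166.3 CPM and the 4 Model libraries 190.0, 207.1, 187.5 and 122.6. MXL_3 was the lowest library, and the groups overlapped. The means were 179.9 ± 15.6 CPM (SD, n = 5) and 176.8 ± 37.1 (SD, n = 4). Between the groups the log2 fold change was 0.026 with an SE of 0.17 in edgeR (unadjusted p = 0.883, adjusted p = 1.00). Its 95% interval ran from -0.35 to 0.40 on the log2 scale, or 0.783-fold to 1.32-fold, so a change of 2-fold lies outside it. The sign of this small value changed when MR3, MR4_5 or MXL_3 was left out.

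Fosl1, on chromosome 19 (5447547 to 5455946, plus strand), encodes FRA-1, a subunit linked to wound repair and invasive growth. Its counts were 0, 6, 2, 0 and 9 in FJDHF-M and 5, 0, 0 and 0 in Model, and it failed the filter on low counts. A count of 0 allows up to 3 counts, which is 0.0375 to 0.0415 CPM, and a difference was not detectable at this depth. Fosl1 overlaps Ccdc85b on the other strand, which had 144 to 309 counts, and whether strand was used in counting is not given in the sources used here.

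**Figure D2:**
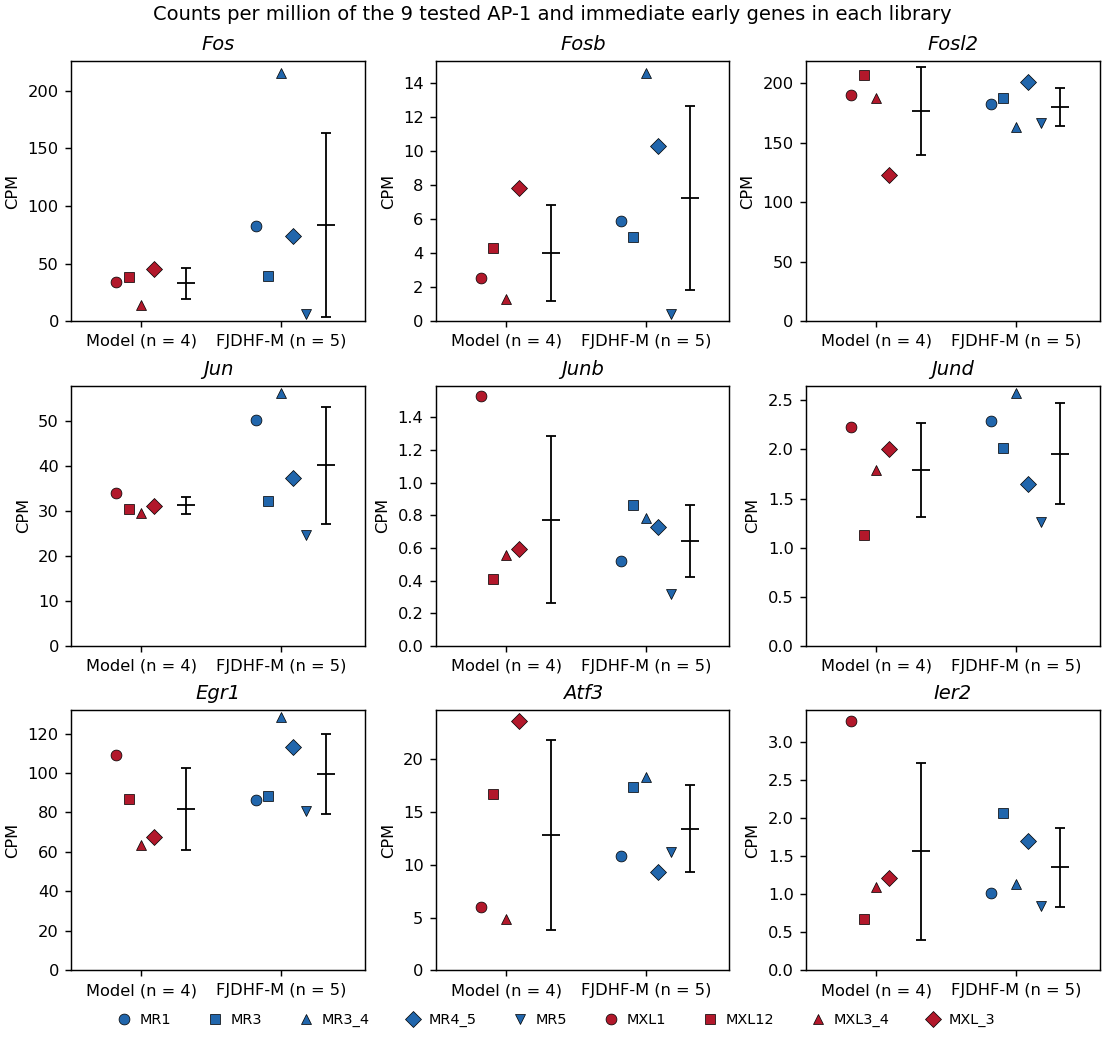
CPM (linear axis from 0) of the 9 tested genes in each library, Model in red and FJDHF-M in blue, with the mean and SD of each group as a bar to the right of its points. In every panel the groups overlap, and for Fos and Fosb the highest (MR3_4) and the lowest (MR5) point are both FJDHF-M.

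Of the JUN family, Jun on chromosome 4 (95049034 to 95052222, minus strand, 1 exon) encodes c-JUN, the main transactivating partner. It reached 50.3, 32.3, 56.3, 37.4 and 24.6 CPM in MR1, MR3, MR3_4, MR4_5 and MR5. The Model libraries lay close together at 34.0, 30.6, 29.5 and 31.2 CPM, within the FJDHF-M range. Jun was 40.2 ± 13.0 CPM (SD, n = 5) in FJDHF-M and 31.3 ± 1.90 (SD, n = 4) in Model. The log2 fold change was 0.36 with an SE of 0.24 (edgeR unadjusted p = 0.160, adjusted p = 1.00), with an interval from -0.17 to 0.88, and the exact permutation p was 0.286. Without MR5 the edgeR value was 0.49 (unadjusted p = 0.0349, adjusted p = 1.00), and without MR3_4 it was 0.21. The gene Junos, antisense to Jun, had 73 to 125 counts.

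Junb, on chromosome 8 (84976910 to 84978718, minus strand, 1 exon), encodes a JUN protein that can oppose c-JUN and that restrains skin inflammation. It had only 39, 69, 57, 58 and 25 counts in FJDHF-M and 121, 31, 43 and 43 in Model. MXL1 was the highest library and MR5 the lowest. In edgeR the log2 fold change was -0.27 with an SE of 0.48 (edgeR unadjusted p = 0.590, adjusted p = 1.00), and it turned to 0.31 without MXL1. In GENCODE M21 the Junb gene reaches 84974484 and there overlaps Prdx2 on the other strand. Prdx2 had 10197 to 17889 counts.

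Jund, also on chromosome 8 (70698949 to 70700616, plus strand, 1 exon), encodes the JUN protein usually present in resting cells. Its counts were 172, 161, 187, 131 and 99 in FJDHF-M and 176, 85, 139 and 145 in Model, with the lowest value in MXL12. The log2 fold change was 0.13 with an SE of 0.31 (edgeR unadjusted p = 0.687, adjusted p = 1.00), and it was -0.038 without MXL12.

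Egr1, on chromosome 18 (34859823 to 34864984, plus strand, 2 exons), encodes a zinc finger factor induced through the ERK pathway and SRF. FJDHF-M held 86.4, 88.6, 128.4, 112.9 and 80.6 CPM and Model 109.1, 86.9, 63.3 and 67.6. MR3_4 and MR4_5 were above every Model library, and the other FJDHF-M libraries were not. The means were 99.4 ± 20.4 CPM (SD, n = 5) and 81.7 ± 20.9 (SD, n = 4), with a log2 fold change of 0.28 and an SE of 0.21 (edgeR unadjusted p = 0.207, adjusted p = 1.00). The interval from -0.18 to 0.75 holds no 2-fold change.

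Atf3, on chromosome 1 (191170296 to 191218039, minus strand), encodes a stress-induced bZIP factor that pairs with JUN proteins. It was measured at 10.8, 17.3, 18.3, 9.28 and 11.2 CPM in FJDHF-M and at 5.99, 16.7, 4.90 and 23.6 CPM in Model. The Model libraries split into a low pair (MXL1, MXL3_4) and a high pair (MXL12, MXL_3), and all FJDHF-M libraries lay above the low pair and below MXL_3. For Atf3 the log2 fold change was 0.064 with an SE of 0.46 (edgeR unadjusted p = 0.892, adjusted p = 1.00). Its sign changed when MR3, MR3_4, MXL1 or MXL3_4 was left out.

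Ier2, on chromosome 8 (84661331 to 84662854, minus strand, 1 exon), encodes a small nuclear protein of the early response. Its counts were 77, 166, 82, 135 and 66 in FJDHF-M and 259, 51, 85 and 88 in Model. MXL1 was again the highest library, as for Junb. Its log2 fold change was -0.21 with an SE of 0.48 (edgeR unadjusted p = 0.671, adjusted p = 1.00), and it was 0.44 without MXL1.

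Across the set, 0 of the 9 tested genes differed between the groups by the criteria of an edgeR adjusted p under 0.05 and a change of at least 2-fold. The same criteria called 0 of the 20817 genes tested (0%), and DESeq2's Wald test called 12 of 34420 (0.0349%), none of them in the set. At an unadjusted edgeR p under 0.05 the count was 0 of 9, against 326 of all genes (1.57%, of which 0.773% were higher in FJDHF-M and 0.793% lower). By DESeq2 it was 0 of the set against 651 of all genes (1.89%), and by limma on log2(FPKM + 1) 0 of the set against 387 (1.86%). The groups did not overlap for 0 of the 9, against 0.514% of all genes. The fold change was above 0 for 7 of the 9 and below 0 for Junb and Ier2, and 44.1% of all genes were above 0. The median log2 fold change was 0.13 in the set and -0.032 over all genes tested. In whole skin a change in the number of cells of a type cannot be told apart from a change in RNA per cell.

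**Figure D3:**
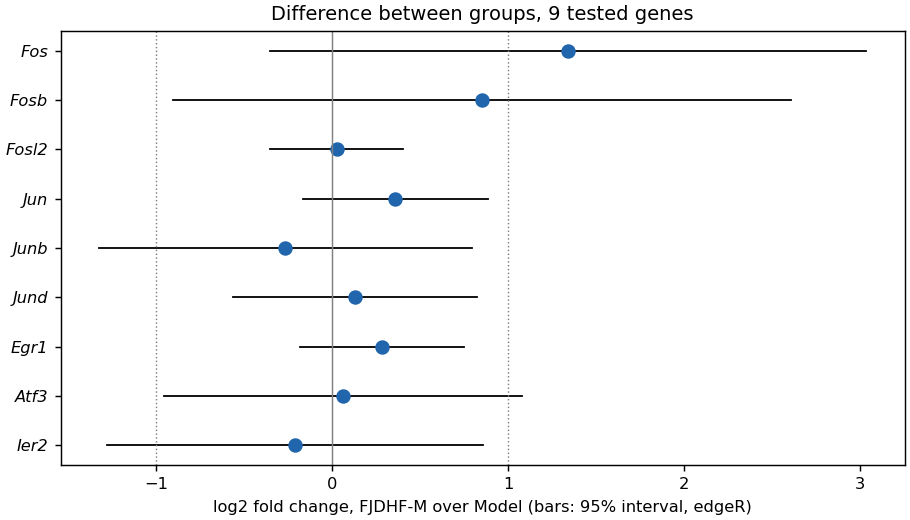
Log2 fold change, FJDHF-M over Model, of the 9 tested genes from the edgeR fit (points) with its 95% interval (lines), and dotted lines at a 2-fold change in either direction. Every interval includes 0, those of Fos (-0.35 to 3.03) and Fosb (-0.91 to 2.61) are the widest, and those of Fosl2, Jun, Jund and Egr1 stay within the dotted lines.

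The spread between libraries of the same group set Fos and Fosb apart from the other genes. The biological coefficient of variation in edgeR was 0.735 for Fos, where the trend over genes of its abundance was 0.316, and 0.785 for Fosb, with a trend of 0.492. For Fosl2 it was 0.217 against a trend of 0.303, and for Egr1 0.251 against 0.302. Only 0.668% of all tested genes had a larger within-group SD of the log2 level than Fos, and 1.42% had a larger one than Fosb. For Atf3 that share was 11.7%, for Egr1 57.8% and for Fosl2 78.1%.

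Fosb and Jun followed Fos across the 9 libraries. On log2(CPM + 0.5) Pearson's r with Fos was 0.951 for Fosb (exact permutation p = 0.000113, adjusted over the 9 relations p = 0.00102) and 0.900 for Jun (exact permutation p = 0.00154, adjusted p = 0.00693). Spearman's rho was 0.950 for Fosb (exact permutation p = 0.000353, adjusted p = 0.00317) and 0.883 for Jun (exact permutation p = 0.00308, adjusted p = 0.0138). With the group means subtracted, r was 0.950 for Fosb and 0.901 for Jun. MR5 and MR3_4 are the libraries farthest from the median of Fos. Without them r was 0.878 for Fosb (exact permutation p = 0.0121) and 0.751 for Jun (exact permutation p = 0.0712), and 0 of the 9 relations passed after adjustment, so that passing rested on having those libraries. With MR5 or MR3_4 left out alone, both relations passed.

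The remaining relations with Fos did not pass. For Egr1 r was 0.637 (exact permutation p = 0.0609, adjusted p = 0.160) and for Jund 0.624 (exact permutation p = 0.0710, adjusted p = 0.160). For Atf3 it was 0.395, for Junb 0.353, for Ier2 0.130, for Fosl2 -0.039 and for the near-absent Fosl1 -0.498. The promoter printed above for Fosl2, like that of Jun, holds neither TGACG nor TATAAA in these bases.

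**Figure D4:**
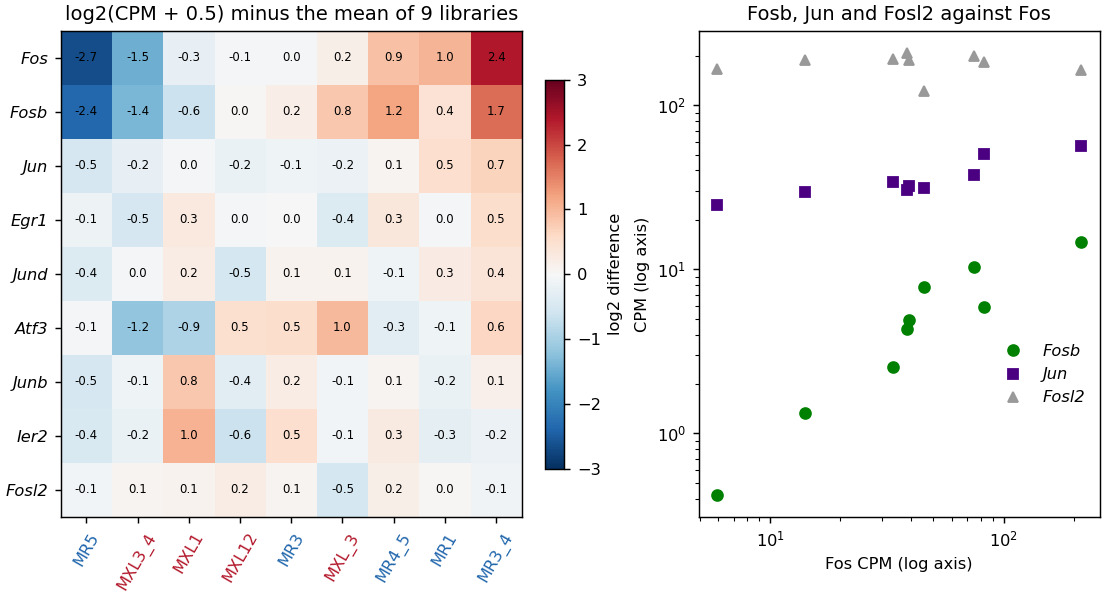
Left, log2(CPM + 0.5) of the 9 tested genes minus its mean over 9 libraries, with libraries ordered by Fos (codes in blue FJDHF-M, in red Model). Right, CPM of Fosb, Jun and Fosl2 against Fos, both axes logarithmic, 1 point a library. Fosb (r = 0.951) and Jun (r = 0.900) climb with Fos, while Fosl2 (r = -0.039) stays level.

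MR3_4 and MR5 were the opposite ends for much of the set. MR3_4 was the highest library for 5 of the 9 tested genes (Fos, Fosb, Jun, Jund, Egr1), or 55.6%, against 8.52% of all tested genes. MR5 was the lowest for Fos, Fosb, Jun and Junb, or 44.4%, against 15.0% of all. Both held for Fos, Fosb and Jun, 3 of 9 (33.3%), against 1.73% of all tested genes. The genes of the set share regulators and are not independent, so these shares are a description of 2 libraries. Among 39 other immediate early genes tested, 4 (10.3%) showed the same pattern, namely Dusp1, a phosphatase that switches off MAP kinases, Zfp36, which destabilises AU-rich mRNAs, the matrix gene Ccn1 and the small GTPase gene Rhob. Dusp1 measured 253.3 CPM in MR3_4 and 11.8 in MR5, with 24.2 to 82.5 in the other 7 libraries. It was not called between the groups, with a log2 fold change of 0.91 (edgeR unadjusted p = 0.202).

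Markers of other cell types differed between these libraries too. The summed level of 7 adipocyte markers was highest in MR3_4, at 2631 CPM, against 992.1 in MR5 and 631.7 to 1818 in the others, and all 7 were highest in MR3_4, with 2 of them lowest in MR5. The sum of 9 skeletal muscle markers was 7859 CPM in MR3_4 and 2587 in MR5, with the highest value, 14265, in the Model library MXL_3. The sum of 8 basal keratinocyte markers was 2090 CPM in MR3_4 and 2108 in MR5, and that of 8 T cell markers was 169.0 and 100.9. Hair follicle markers summed to 2262 CPM in MR3_4 and to 902.4 in MR5, the lowest library, with 5 of the 8 tested lowest there. Macrophage markers summed to 1452 and 783.9 CPM, with 559.1 to 1463 in the other libraries, so neither library was an extreme. Of the 9 markers, 4 were lowest in MR5 and 1, Mertk, was highest there. The sum of 10 differentiated keratinocyte markers ran the other way, at 10627 CPM in MR3_4 and 15897 in MR5, the highest library. Fibroblast markers summed to 24214 CPM in MR3_4 and 24351 in MR5, and endothelial markers to 589.4 and 487.1. In all these lists, and in that of neutrophil markers, every marker was above the floor in at least 1 library. The part of cell content in the pattern of Fos, Fosb and Jun was not tested.

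Junb, Jund and Ier2 are GC-rich genes of 1 exon, and their low levels stood among those of many genes of that kind. The GC content of the longest coding transcript in GENCODE M21 was 62.6% for Junb, 67.1% for Jund and 60.9% for Ier2, and 1.48%, 0.219% and 3.21% of coding genes had a higher one. For Fos it was 51.9%, for Fosl2 53.1%, for Jun 55.5% and for Egr1 57.3%. Of 132 coding genes with 1 exon and a GC content of at least 60%, 123 (93.2%) had a median under 2 FPKM, against 67.4% of the 812 other genes with 1 exon and 44.1% of all 18763 coding genes. Whether this class was measured less fully than others was not tested.

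The levels of Junb and Ier2 were highest and lowest in the libraries at the ends of the share of GC-rich transcripts. Genes with a GC content of at least 60% took 1.40% of the counts in MXL1, 1.14% in MR3 and 0.365% and 0.362% in MXL12 and MR5. MXL1 and MR3 were the highest libraries for both Junb and Ier2, and MR5 and MXL12 the lowest for both. Between these ends the order differed, since MR1, with the third largest share (0.828%), ranked 7 of 9 for both genes. With the log2 of this share as a covariate, an alternative chosen after seeing the data, the edgeR log2 fold change was -0.23 (SE 0.31) for Junb, -0.10 (SE 0.29) for Ier2 and 1.20 (SE 0.84) for Fos, and 0 genes were called.

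**Figure D5:**
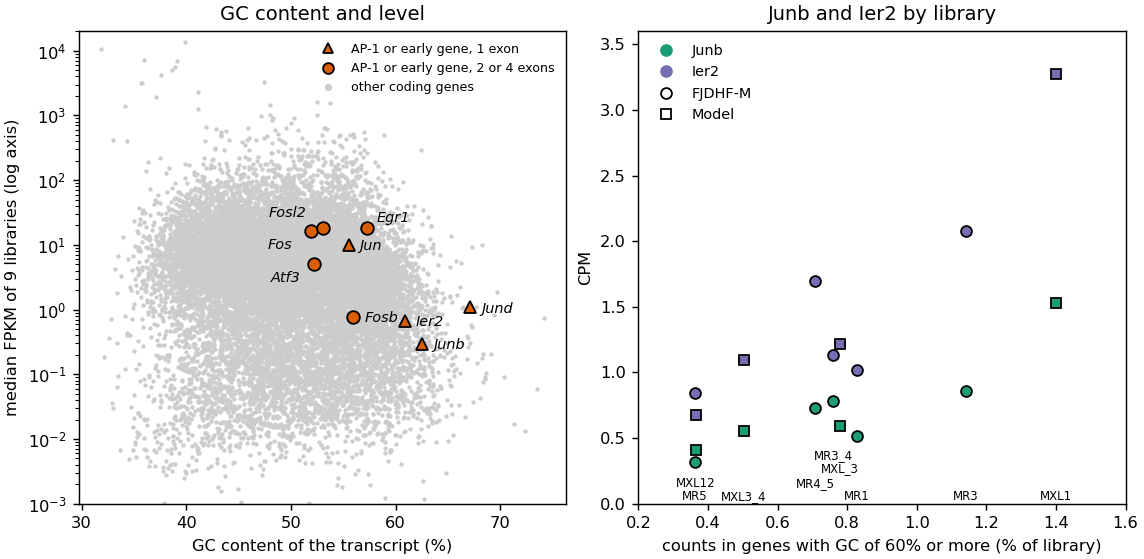
Left, median FPKM of 9 libraries (log axis) against the GC content of the transcript, coding genes in grey and the set in orange, with triangles for genes of 1 exon. Right, CPM of Junb and Ier2 in each library against the share of its counts in genes with at least 60% GC. Junb, Jund and Ier2 lie at 60.9% to 67.1% GC, and both genes on the right are highest in MXL1, which has the largest share (1.40%).

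The 8 genes outside the set with the highest Pearson r over the 9 libraries to the mean standardised level of its tested genes were Gm28035 (r = 0.985), Mrpl28 (0.961), Klf16 (0.945), Nrm (0.940), Trmt112 (0.936), Rab20 (0.933), Psca (0.932) and Gm6139 (0.928). None of them is an AP-1 subunit. The GC content was known for 6 of these, at 55.8% to 60.4%. The points share depth and the GC composition of each library, which differed between libraries, and the mean standardised level itself ran from -1.05 in MR5 to 0.89 in MR3_4. The 8 genes are the top of all tested genes ranked on 9 points, so high r values follow from the selection. The mean level also joins genes that did not move together, such as Fos and Fosl2 (r = -0.039).

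Partners and regulators of AP-1 were read from lists of textbook genes. Of 11 bZIP partners tested, 7 were above 0 and 4 below, with a median log2 fold change of 0.049. Among them were Maff (log2 fold change 0.18, edgeR unadjusted p = 0.472) and Jdp2, a repressor of AP-1 (-0.48, edgeR unadjusted p = 0.489). Of 27 kinases and factors upstream of AP-1, 13 were above 0 and 14 below, with a median of -0.0097, and 0 had an unadjusted edgeR p under 0.05, against 1.57% of all genes. The smallest p values were those of Mapk14, the p38 alpha kinase (0.18, edgeR unadjusted p = 0.184), Mapk8, the JNK1 kinase (-0.19, edgeR unadjusted p = 0.285), and Map3k5, the ASK1 kinase (-0.28, edgeR unadjusted p = 0.356).

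The 39 other immediate early genes gave 21 above 0 and 18 below, with a median of 0.0026. Klf4, a factor of barrier formation in skin, was the only one with an unadjusted p under 0.05, with 188.6 to 304.2 CPM in FJDHF-M and 147.1 to 227.6 in Model (log2 fold change 0.62, edgeR unadjusted p = 0.0100, adjusted p = 1.00). Of all genes, 1.57% had such a p. Nr4a3, a nuclear receptor, was at 28.4 CPM in MXL12 and at 2.37 to 6.95 in the other libraries (log2 fold change -1.04, edgeR unadjusted p = 0.139). Ccn1 had a log2 fold change of 0.62 (edgeR unadjusted p = 0.182). MXL12 was the highest library for 12 of the 39 (30.8%), against 14.5% of all genes, but for only Fosl2 within the set. Other libraries stood out too. MXL1 was the highest for 10 of the 39 (25.6%), against 16.9% of all genes. MXL_3 was the lowest for 15 (38.5%), against 13.3%, and MR5 for 10 (25.6%), against 15.0%.

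Most textbook AP-1 target genes were highest in MXL12. Of 15 tested, 6 were above 0 and 9 below, with a median of -0.30, which was 0.34 without MXL12 and 0.15 with limma on log2(FPKM + 1) over all 9 libraries. MXL12, where Fos was at 38.6 CPM, was the highest library for 10 of the 15 (66.7%), namely Mmp3, Mmp9, Mmp10, Mmp13, Plaur, Timp1, Cd44, Il6, Ptgs2 and Hbegf, against 14.5% of all genes. MR3_4, the highest library for Fos, was the highest for 0 of the 15, against 8.52% of all tested genes. For so few genes a count of 0 is near that share. Mmp3, a matrix metalloproteinase, had a log2 fold change of -0.91 (edgeR unadjusted p = 0.0375, adjusted p = 1.00, exact permutation p = 0.167), and Il6 one of -2.06 (edgeR unadjusted p = 0.0539), with 14.1 CPM in MXL12 and at most 1.34 elsewhere. The summed level of 10 neutrophil markers was 986.2 CPM in MXL12 and 76.1 to 204.6 in the other libraries, and its part in these values was not tested.

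Ivl, which encodes involucrin of the cornified envelope, was the target gene whose groups did not overlap, against 0.514% of all genes. It also had the smallest edgeR p of the 15 target genes, so its p-values are those of a selected gene. It stood at 189.1, 207.7, 179.7, 164.9 and 172.2 CPM in FJDHF-M and 161.0, 86.7, 135.1 and 67.6 in Model, a log2 fold change of 0.70 (edgeR unadjusted p = 0.0159, adjusted p = 1.00, exact permutation p = 0.00794). Beside it, the sum of 10 markers of differentiated keratinocytes was 8508 to 15897 CPM in FJDHF-M and 3456 to 9795 in Model. Of the 10, 4 had an unadjusted edgeR p under 0.05, all higher in FJDHF-M, against 0.773% of all genes. The markers of 1 cell type are not independent.

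Of 10 heat shock genes, 8 were above 0 and 2 below, with a median of 0.22. Hspa1a (log2 fold change 0.71, edgeR unadjusted p = 0.0191) and Hspa1b (0.65, edgeR unadjusted p = 0.0288), which encode near-identical inducible HSP70 proteins and may share reads, were those with an unadjusted p under 0.05, against 1.57% of all genes. Hspa1a ran from 7.67 to 10.04 CPM in FJDHF-M and from 3.33 to 7.58 in Model, so its groups did not overlap, against 0.514% of all genes. The levels of Hspa1a and Hspa1b in MR3_4, at 9.81 and 18.9 CPM, and in MR5, at 7.67 and 14.5 CPM, were much closer to each other than those of Fos. This did not hold for the whole list. Hspb1 was at 56.6 CPM in MR3_4 and 8.41 in MR5, whereas Hsph1 was lower in MR3_4 (93.3 CPM) than in MR5 (125.5).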

How the data were processed

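Back skin RNA of 9 libraries was used (5 FJDHF-M, 4 Model), made after poly(A) capture and strand-specific library preparation. The authors deposited raw read counts per gene as whole numbers and FPKM, which they scaled for gene length and library size. The submitters' processing notes name HISAT, StringTie, DESeq2 and the build mm10. Versions, annotation release and the strand setting of counting are not given in the sources used here. The FPKM table repeats the counts in 9 columns that were checked to be identical and were not used.

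All genes entered 1 fit without covariates, the quasi-likelihood test of edgeR 4.0.16 under R 4.3.3. Libraries were scaled by TMM, 20817 genes passed filterByExpr, and p-values were adjusted by Benjamini-Hochberg over them. Genes were called at an adjusted p under 0.05 and at least 2-fold, the criteria of the study's methods. Single values used exact two-sided permutation tests on log2(CPM + 0.5) in Python 3.11.15 with scipy 1.17.1. Relations with Fos were tested over all pairings of the 9 libraries. Counts of any 2 libraries differed by more than sampling noise (chi-square per degree of freedom 100.1 to 468.5 over 36 pairs). Whether replicates are separate animals in every case is not stated beyond the labels, and p-values measure the spread between these libraries. Alternatives were DESeq2 1.42.0 (size factors, Wald test), limma 3.58.1 on log2(FPKM + 1), other filters on low counts, other pseudocounts, ranks, leaving out each library and a replicate block. Scripts were tested on simulated data. GC content, exons and overlaps came from GENCODE M21, and promoters from RefSeq.

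The members and lists were chosen with earlier results of these data known. Named were all 10 genes, from the lists of bZIP partners, other immediate early genes, upstream kinases and factors, and AP-1 targets the 3 genes with the smallest unadjusted edgeR p, and the 8 genes most like the set. A gene that this rule selects is left out of the text. Dusp1, Zfp36, Rhob, Hspa1a, Hspa1b, Hspb1, Hsph1, Mertk and the genes highest in MXL12 were named after their values were seen. Total counts and the resulting floor are given with the samples above.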

Additional observations from a re-analysis of the deposited data

How the results depend on the processing

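No gene of the set was called under any alternative run. Over all genes the count was 0 with edgeR under each alternative and with limma, and 12 with DESeq2's Wald test. Leaving out each library in turn, 0 to 2 genes of the set had an unadjusted p under 0.05 (2, Fos and Jun, without MR5), and the median of the AP-1 target genes ran from -0.52 to 0.34. The number of relations with Fos past the threshold fell from 2 to 0 without MR5 and MR3_4, where r was -0.071 for Junb and -0.0099 for Ier2. On ranks the difference of Fosl2 was -0.90. With each library left out, log2 fold changes ran from -0.11 to 0.11 for Fosl2, -0.21 to 0.54 for Atf3, -0.47 to 0.31 for Junb, -0.46 to 0.44 for Ier2 and -0.038 to 0.25 for Jund. The differences in mean log2 level ran from -0.28 to 0.28 for Ier2, -0.24 to 0.14 for Junb, -0.054 to 0.22 for Jund, -0.053 to 0.67 for Atf3 and -0.12 to 0.13 for Fosl2. In the same runs r with Fos ran from -0.19 to 0.11 for Fosl2 and -0.13 to 0.27 for Ier2. The log2 fold change kept its sign for Fos (0.62 to 1.64), Fosb (0.43 to 1.40), Jun (0.21 to 0.49) and Egr1 (0.17 to 0.45). Each run that leaves a library out also has fewer libraries, and the cause of the changes of sign was not tested. For the numbers shared by 3 codes of each group, the correlations of deviations were 0.225 (MR1), 0.118 (MR3) and -0.219 (MR3_4). Among the 4 Model libraries the one with the same number ranked 1, 2 and 4. So few values cannot settle whether these numbers pair the libraries. A replicate block on these numbers gave 0 genes called and a log2 fold change of 1.61 for Fos, 1.31 for Fosb, 0.52 for Jun and 0.77 for Atf3. MR4_5, MR5 and MXL12 share no number and add nothing to the group difference in that fit. These values thus rest on 3 pairs without MR5, the lowest library for Fos. They cannot be read as a check over all 9 libraries. With limma on log2(FPKM + 1) the values were 0.76 for Fos, 0.33 for Fosb and 0.25 for Atf3, and the median of the AP-1 target genes was 0.15. The values of the 3 genes are differences in mean log2 level. On log2(CPM + 0.5) such differences were 0.73 for Fos, 0.52 for Fosb and 0.29 for Atf3. The scale with 1 added understates changes of low genes such as Fosb. Depth limited Fosl1 (0 to 9 counts).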
